A study of Arabidopsis thaliana with 12 samples.

Results

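Of 22746 probe sets tested in Arabidopsis thaliana seedlings, 1085 responded differently to dexamethasone (DEX) in 35S:LOB-GR than in Columbia, and they are described here. Each was chosen on 1 quantity, the DEX minus mock change in 35S:LOB-GR less the same change in Columbia. It is called the difference of responses below, is given in log2 units, and is positive where the response was higher in 35S:LOB-GR. A probe set was called at a limma adjusted p under 0.05. Called probe sets were then sorted by the genotype whose fitted response was at least 2 times the other in size, which put 820 in the 35S:LOB-GR arm and 59 in the Columbia arm. In the remaining 206 the responses had opposite signs and neither reached 2 times the other, and these are termed opposed.

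Whole seedlings of 9 days were used, all in the Col-0 background. They were either wild type (Columbia) or 35S:LOB-GR, and were shaken in liquid MS medium for 4 h, with 5 µM DEX or without it (mock). Each of the 4 groups had 3 arrays labelled as biological replicates, and p-values measure the spread between these samples. The number of transgenic lines behind 35S:LOB-GR was not given in the sources used here.

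LATERAL ORGAN BOUNDARIES (LOB) is a plant-specific transcription factor that is normally made at the base of lateral organs, in the boundary where growth is restricted. In 35S:LOB-GR the 35S promoter drives it in most tissues. GR is the steroid-binding part of the glucocorticoid receptor, which keeps a fused protein in the cytoplasm until a steroid such as DEX binds. The wild type has no fusion protein, so its response to DEX is the background against which the 35S:LOB-GR response is read. No probe set was named LOB, and its transcript could not serve as a check of the labels. In RNA of whole seedlings, fewer cells of a type and less RNA per cell cannot be told apart.

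Within groups, Pearson's r between arrays was at least 0.9922 across probe sets (not independent points). Array medians lay between 5.88 and 5.97. The array that deviated most from its own group was the DEX replicate 1 of 35S:LOB-GR (root mean square deviation 0.166, against 0.0987 to 0.142 for the other arrays). Of the fixed tissue markers, 4 of 23 leaf genes were measured and none was called, with differences of -0.13 to 0.13. Of 21 root genes 3 were measured and 1 was called lower, the xyloglucan enzyme gene XTH20, where 2.95% of all probe sets were. No cell division marker was measured.

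The 1085 called probe sets were 4.77% of those tested. Limma called 413 of them higher in 35S:LOB-GR (1.82%) and 672 lower (2.95%), and 329 differed by at least 1 on the log2 scale. For comparison, limma called 9.97% of all probe sets for DEX against mock in 35S:LOB-GR and 0.0572%, or 13, in Columbia, where 12.7% had an unadjusted p under 0.05. The median difference of all probe sets was 0.01. Without DEX replicate 1 of 35S:LOB-GR the count was 1591, with 642 higher and 397 opposed, and 1018 of the 1085 were still called. Without DEX replicate 2 of Columbia it was 724, of which 704 were among the 1085, and 260 of the 724 were higher.

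**Figure D1:**
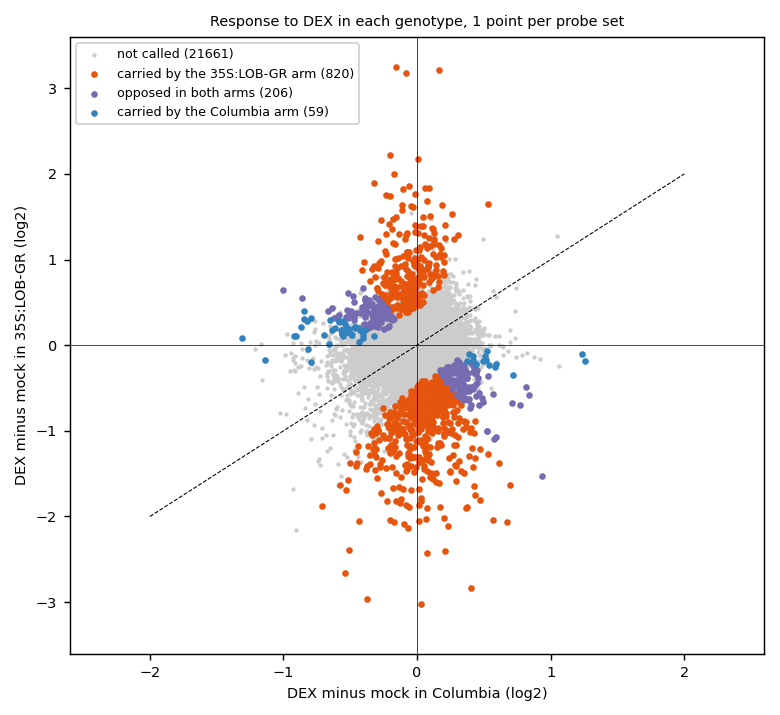
Fitted DEX minus mock change in Columbia (x axis, log2) and in 35S:LOB-GR (y axis, log2), 1 point per probe set; the dashed line marks equal responses. The 820 called probe sets of the 35S:LOB-GR arm spread along the vertical axis, the 59 of the Columbia arm lie near the horizontal axis, and the 206 opposed ones lie between them in the upper left and lower right.

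The 35S:LOB-GR arm held 75.6% of the called probe sets, 274 higher and 546 lower. All 820 were called for DEX against mock within 35S:LOB-GR, and none within Columbia. The sort used these same responses, so both counts largely follow from it and are given as a description. Among the 274, the median response was 0.78 in 35S:LOB-GR and -0.07 in Columbia, and among the 546 it was -0.83 and 0.07. The sum of both responses, which is uncorrelated with their difference in this balanced design, tested which arm was the larger. It was called for 7.36% of all probe sets, and it placed 35S:LOB-GR as the larger arm for 561 of the 1085 and Columbia for 7. For the other 517 the larger arm was not settled by that test.

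Wall-loosening genes moved in both directions within this arm. EXPA9, an alpha-expansin that loosens cell walls, measured 6.95, 6.61 and 6.85 in Columbia mock and 6.84, 6.97 and 6.87 in Columbia DEX (log2). In 35S:LOB-GR it measured 6.55, 6.54 and 6.69 in mock and 8.60, 8.17 and 8.50 in DEX. Only the 35S:LOB-GR DEX arrays stood apart from the other 9, and the response there was 3.56-fold.

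EXPA4, another alpha-expansin, measured 8.44, 8.61 and 8.41 in 35S:LOB-GR mock and 9.93, 9.80 and 9.91 in DEX. Its 6 Columbia arrays lay between 8.03 and 8.32, below both groups. The difference of responses was 1.35 ± 0.13 (SE; limma adjusted p = 3.01e-05). EXPB3, a beta-expansin, rose in 35S:LOB-GR as well, from 8.06, 7.93 and 8.23 to 9.51, 8.77 and 8.77, with a difference of 1.04 ± 0.22 (limma adjusted p = 0.0124).

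EXPA8 went the other way. It measured 9.36, 8.84 and 9.58 in Columbia mock and 9.74, 9.93 and 10.12 in Columbia DEX, against 7.0, 7.27 and 7.79 in 35S:LOB-GR mock and 5.72, 4.83 and 5.32 in DEX. The 4 groups did not overlap, and the 35S:LOB-GR mock arrays already lay below both Columbia groups. Within 35S:LOB-GR the level fell by 2.06 ± 0.23 (limma adjusted p = 2.86e-05). The Columbia value was 0.67 ± 0.23 (limma adjusted p = 0.233).

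Of 26 alpha-expansins listed, 10 were measured, 2 were called higher, 1 was called lower and 7 were not called. Of 10 beta-expansins and expansin-like genes, 8 were measured, 1 was called higher and 3 lower. Among all probe sets, 1.82% were called higher and 2.95% lower. The lower genes of this second list were the expansin-like genes EXLB1 and EXLA2, at -1.01 and -0.93, and the beta-expansin EXPB1, at -0.75. Of these EXLA2 belonged to the 35S:LOB-GR arm, and EXLB1 and EXPB1 were opposed. The call for EXLA2 held in 4 of the 12 fits that left out 1 array (highest limma adjusted p 0.0957), and those of the other 2 held in all 12. The median difference was 0.19 for alpha-expansins and -0.42 for the second list, against 0.01 for all probe sets.

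Xyloglucan endotransglucosylases cut and rejoin the xyloglucan that links cellulose in the wall. Of 40 names listed 10 were measured, none was called higher and 2 were called lower, against 2.95% of all probe sets. XTH16 measured 8.88, 9.04 and 8.97 in 35S:LOB-GR mock and 7.64, 7.54 and 7.84 in DEX, while its Columbia arrays lay between 9.31 and 9.68 under both treatments. Its difference was -1.22 ± 0.16 (limma adjusted p = 0.000305). XTH20 differed by -0.73 ± 0.14 (limma adjusted p = 0.00643). XTH18, at -1.11 ± 0.40, missed the threshold (limma adjusted p = 0.148), and its 35S:LOB-GR mock arrays ranged from 7.64 to 9.02.

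Pectin genes were represented by 3 of the 20 listed, of which 1 was called lower, against 2.95% of all probe sets. That gene, ATPMEPCRB, encodes a pectin methylesterase, an enzyme that removes methyl groups from pectin. It measured 8.70, 9.66 and 8.55 in 35S:LOB-GR mock and 6.13, 6.07 and 5.83 in DEX. The Columbia arrays lay between 7.53 and 8.62, so the 35S:LOB-GR DEX arrays were below all others. GAUT15, a member of the galacturonosyltransferase family of pectin synthesis, was called higher, at 0.98 ± 0.17 (limma adjusted p = 0.00284). TBL37, of a family that acetylates wall polysaccharides, was called lower, at -1.46 ± 0.13 (limma adjusted p = 1.91e-05). GAUT15 and TBL37 lay outside the lists and were chosen after their values were seen.

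**Figure D2:**
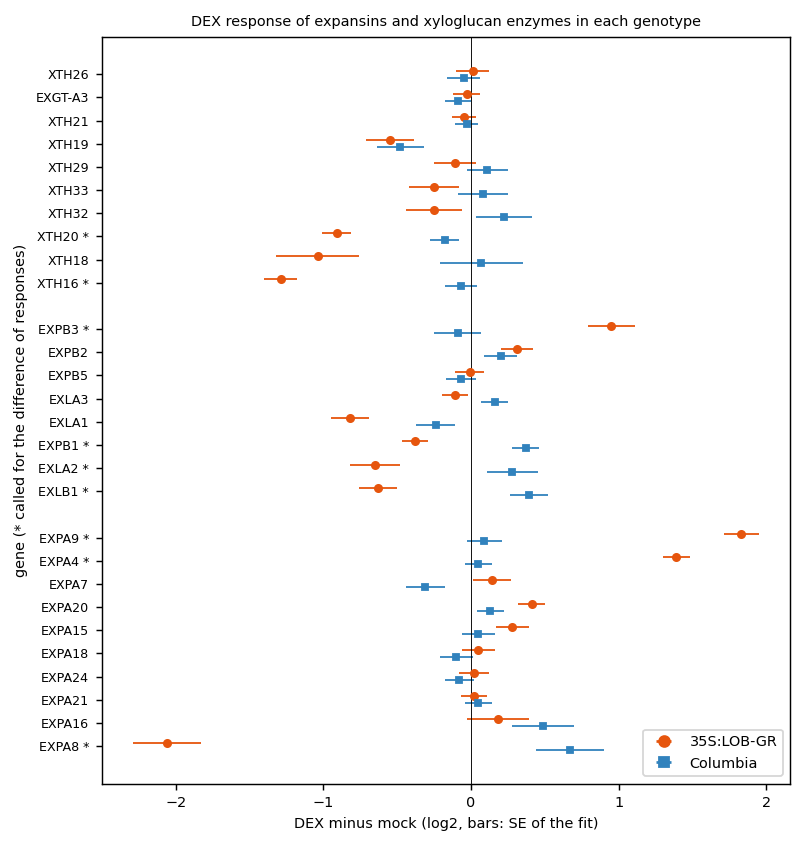
DEX minus mock change (x axis, log2, bars are the SE of the fit) of measured xyloglucan enzymes, beta-expansins with expansin-like genes, and alpha-expansins (groups from top to bottom) in 35S:LOB-GR (circles) and Columbia (squares). EXPA9 and EXPA4 lie far right and EXPA8 far left in 35S:LOB-GR, while their Columbia values stay between 0.05 and 0.67; a star marks genes called for the difference.

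Only 2 of 29 brassinosteroid genes listed were measured, and both were called higher, against 1.82% of all probe sets. The list was chosen with earlier results of these data known. Brassinosteroids are growth-promoting plant steroids. BRL1, a receptor kinase that binds them, measured 3.77, 3.78 and 3.82 in 35S:LOB-GR mock and 5.17, 5.03 and 5.04 in DEX, with all Columbia arrays between 3.64 and 3.81. Without DEX these levels were near the low end of the table, whose lowest value was 2.71, so the size of the rise is less certain. BAT1, an acyltransferase that inactivates brassinosteroids, measured 6.49, 6.55 and 6.56 in 35S:LOB-GR mock and 7.34, 7.34 and 7.23 in DEX. Its 6 Columbia arrays lay between 6.55 and 6.79, below all DEX arrays of 35S:LOB-GR.

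By locus, the 10 named genes with the largest positive differences in the 35S:LOB-GR arm ranged from 1.66 to 2.22. Besides EXPA9 they were AT3G51660, AT5G57785, AT3G13672, AT1G64405, AT1G48330, AT5G43150, AT1G33170, AT1G70000 and AT3G18280. AT3G51660 measured 6.52, 6.62 and 6.12 in 35S:LOB-GR mock and 8.13, 8.55 and 8.27 in DEX, while Columbia fell between those groups, at 7.15 to 7.69. AT1G48330 and AT5G43150 had the same order, with 35S:LOB-GR lowest in mock and highest in DEX. AT1G70000 instead started at 6.39, 6.04 and 6.41 in 35S:LOB-GR mock, above all Columbia arrays, and reached 7.93, 7.92 and 7.88.

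The 10 with the largest negative differences ranged from -3.24 to -2.12. Besides EXPA8 and ATPMEPCRB they were AT5G62280, AT5G01210, AT5G50335, AT5G39580, AT3G53250, AT3G12710, AT2G39980 and AT4G22470. AT5G62280 measured 6.76, 7.82 and 7.34 in 35S:LOB-GR mock and 4.78, 4.49 and 4.14 in DEX, against 7.94 to 8.92 in Columbia. AT4G22470 had a smaller value in the same direction in Columbia. It measured 9.59, 9.12 and 9.25 in Columbia mock and 8.77, 8.75 and 8.82 in DEX, against 9.09, 9.47 and 9.02 and then 6.59, 6.54 and 6.49 in 35S:LOB-GR. All 20 of these loci were called in each of the 12 fits that left out 1 array.

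Among probe sets with no gene name here, the differences reached 3.4. The probe set 256981_at measured 5.15, 5.08 and 5.00 in 35S:LOB-GR mock and 8.31, 8.29 and 8.35 in DEX, against 4.66 to 4.95 in Columbia, a difference of 3.4 ± 0.12 (limma adjusted p = 4.26e-10). The probe set 247097_at differed by 3.26 ± 0.16. The most negative differences among these unnamed probe sets were -3.05 ± 0.35 for 266364_at and -2.34 ± 0.24 for 249467_at.

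Only 94 of the 518 called genes carried a name beyond the locus, and those described in the next paragraphs were picked from them after their values were seen. Auxin is a growth hormone. HAT2, a homeodomain-leucine zipper factor that auxin induces, measured 7.54, 7.81 and 7.80 in 35S:LOB-GR mock and 6.64, 6.83 and 6.68 in DEX, against 8.08 to 8.65 in Columbia. IAGLU, which joins glucose to auxin, measured 7.99, 8.70 and 8.32 and then 7.33, 7.18 and 7.06, with Columbia between 7.72 and 8.41. Another glucosyltransferase, UGT74D1, differed by -0.91 ± 0.15 (limma adjusted p = 0.00177).

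TUB1, a beta-tubulin of microtubules, measured 7.70, 7.80 and 7.75 in 35S:LOB-GR mock and 6.71, 6.73 and 6.60 in DEX. Columbia measured 7.94, 7.67 and 7.99 in mock and 8.34, 8.13 and 8.06 in DEX, so its DEX arrays lay above its mock arrays, by 0.31 on average (limma adjusted p = 0.217). Of 7 tubulin genes measured, TUB1 was the only one called, and their median difference was -0.39. The call of TUB1 held in all 12 fits that left out 1 array. Of 15 genes of the IQ-domain family, which binds calmodulin, 3 were called lower (IQD23, iqd21 and IQD19, at -0.68, -0.63 and -0.60) and none higher, where 2.95% of all probe sets were called lower. The median of the 15 was -0.19. The calls for IQD23 and IQD19 held in 2 and 3 of the 12 fits (highest limma adjusted p 0.107 and 0.0998), and that for iqd21 in all 12.

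For several falls the 35S:LOB-GR mock level lay above Columbia before DEX. FMO, a flavin-containing monooxygenase, measured 7.30, 7.39 and 7.36 in 35S:LOB-GR mock and 5.68, 5.39 and 5.39 in DEX, with Columbia between, at 6.28 to 6.61. SUFE2, a plastid iron-sulfur cluster gene, measured 6.51, 6.65 and 6.31 in 35S:LOB-GR mock and 4.91, 5.33 and 5.14 in DEX. Its 6 Columbia arrays lay between 4.67 and 5.24, so 2 of the 3 DEX arrays of 35S:LOB-GR lay within the range of the wild type and the third just above it. The sugar transporter gene SWEET1 had a like pattern, with 8.67, 8.40 and 8.14 in 35S:LOB-GR mock, 7.55, 7.52 and 7.47 in DEX and 7.52 to 8.13 in Columbia.

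CLE41, which encodes a peptide that keeps vascular stem cells from differentiating, measured 8.65, 8.64 and 8.65 in 35S:LOB-GR mock and 8.09, 7.90 and 7.80 in DEX. Its Columbia arrays lay between 7.89 and 8.22. MSRB9, a methionine sulfoxide reductase, and APS3, an ATP sulfurylase of sulfate assimilation, were called lower, at -1.82 ± 0.28 and -0.94 ± 0.13. Rises outside the wall and steroid genes included SKP2A, an F-box protein that targets cell cycle regulators for degradation. It measured 6.77, 6.03 and 6.67 in 35S:LOB-GR mock and 7.34, 7.33 and 7.12 in DEX, with Columbia at 6.54 to 6.89. JAL33 and JAL34, adjacent jacalin-related lectin genes, differed by 0.78 ± 0.15 and 0.57 ± 0.15. The call for JAL34 held in 3 of the 12 fits that left out 1 array (highest limma adjusted p 0.0908).

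**Figure D3:**
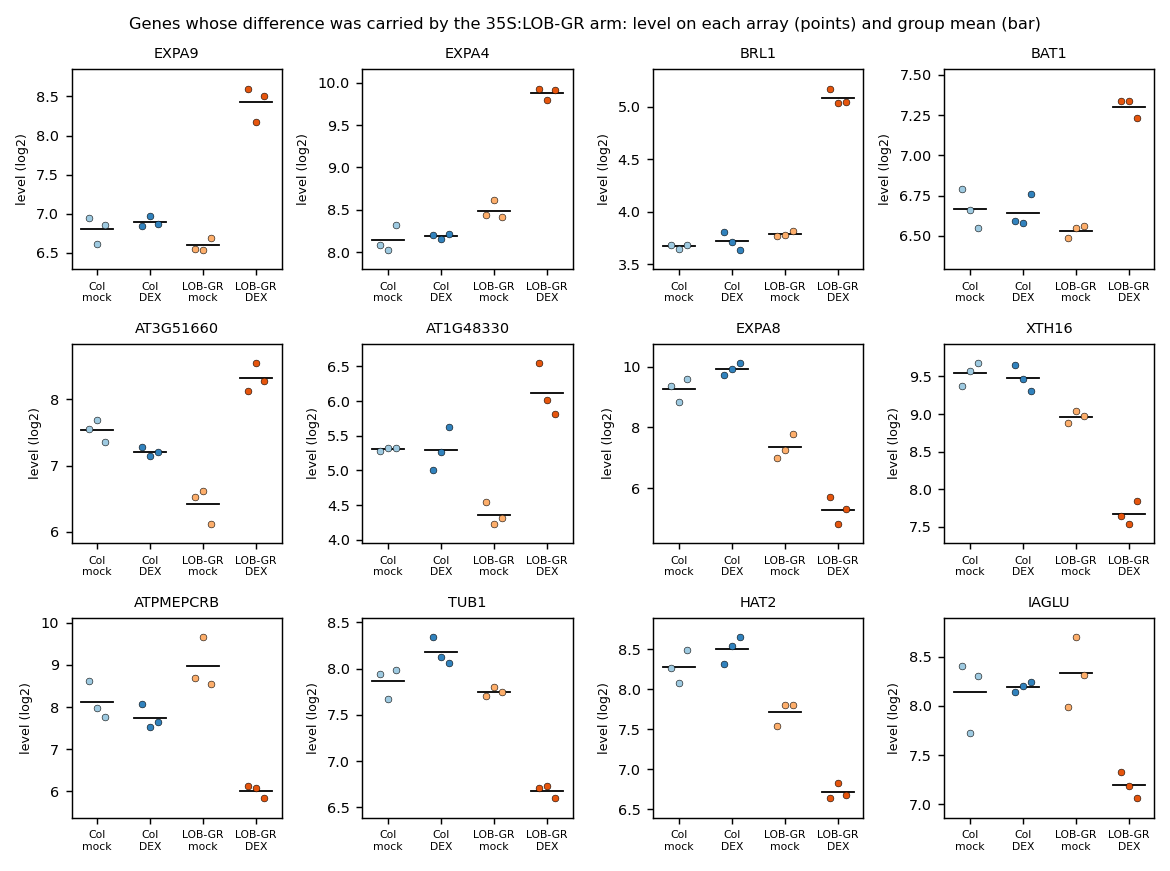
Level (y axis, log2) of 12 genes of the 35S:LOB-GR arm on each array (points, 3 per group) with the group mean (bar); panels have their own scales. The 35S:LOB-GR DEX arrays lie above the other 9 in the first 6 panels and below them in the last 6, and the mock levels differ between genotypes for several genes, such as AT3G51660, AT1G48330 and EXPA8.

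The 3 DEX arrays of 35S:LOB-GR all lay outside the range of the other 9 for 697 of the 820 probe sets (85%), against 11.2% of all probe sets. The 35S:LOB-GR mock arrays did so for 23.9% of the 820, against 3.75% of all. These counts use the values that sorted the probe sets and are given as a description.

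The Columbia arm was small. It held 5.44% of the called probe sets, 43 with a higher difference (median Columbia response -0.56) and 16 with a lower one (median 0.51). Limma called 9 of the 59 for DEX against mock within Columbia, against 0.0572% of all probe sets, and 50 in neither genotype alone. The sort used these same responses, so both counts are given as a description. For 7 probe sets, 6 higher and 1 lower, the sum of responses also placed Columbia as the larger arm. That count was 23 without mock replicate 3 of Columbia and 12 without DEX replicate 1 of 35S:LOB-GR. The arm was sensitive to single arrays. Its count was 94 without mock replicate 3 of Columbia, 91 without DEX replicate 1 of 35S:LOB-GR and 23 without DEX replicate 2 of Columbia. Leaving out either of the other Columbia mock arrays, Columbia DEX replicate 1, 35S:LOB-GR mock replicate 2 or 3, or 35S:LOB-GR DEX replicate 2 or 3 gave between 25 and 39.

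COR27, a cold-regulated gene whose product represses clock genes, had the largest difference among the named genes of this arm. It measured 4.93, 5.48 and 5.37 in Columbia mock and 6.47, 6.49 and 6.54 in Columbia DEX, a 2.36-fold rise. In 35S:LOB-GR it measured 7.05, 7.02 and 7.09 in mock and 7.12, 7.02 and 6.72 in DEX. The Columbia mock arrays stood apart below the other 9, and the 35S:LOB-GR arrays were high under both treatments. The difference was -1.34 ± 0.18 (limma adjusted p = 0.000507), it was called in all 12 fits that left out 1 array, and the sum of responses placed Columbia as the larger arm (limma adjusted p = 0.00137).

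Of 22 clock genes listed only COR27 and GI (GIGANTEA), an evening gene, were measured. The 6 Columbia arrays of GI lay between 9.05 and 9.30 and the 6 of 35S:LOB-GR between 5.85 and 6.94, so the genotypes did not overlap in level. Its difference of responses was -0.15 ± 0.30 (limma adjusted p = 0.876). Of 17 cold-regulated genes listed 4 were measured and none was called, with COR15B at -0.90 ± 0.42 (limma adjusted p = 0.294) and COR47 at -0.40 ± 0.23. COR27, itself cold-regulated and called, was on the clock list and not on this one.

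NRPA1, the largest subunit of RNA polymerase I, measured 7.56, 7.67 and 7.52 in Columbia mock and 7.13, 7.08 and 7.05 in DEX. In 35S:LOB-GR it measured 7.51, 7.59 and 7.51 in mock and 7.62, 7.74 and 7.66 in DEX, so only the Columbia DEX arrays stood apart. The difference was 0.63 ± 0.11 (limma adjusted p = 0.00355). The defensin gene PDF2.5 measured 4.57, 4.68 and 4.55 in Columbia mock and 3.93, 3.92 and 3.97 in DEX, with 35S:LOB-GR between, at 4.10 to 4.39. Its difference was 0.68 ± 0.13 (limma adjusted p = 0.00622). NRPA1 and PDF2.5 were chosen after their values were seen, were called within Columbia and were called in all 12 fits that left out 1 array.

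Plastid-encoded genes had members in this arm. The ribosomal protein gene rpl14 measured 7.71, 7.74 and 6.99 in Columbia mock and 6.51, 6.34 and 6.17 in DEX, against 6.17 to 6.84 in 35S:LOB-GR under both treatments. The Columbia mock arrays stood above all others, the third by the least. psbN, a small gene of photosystem II assembly, measured 6.81, 6.76 and 6.83 in Columbia mock and 7.09, 7.16 and 7.42 in Columbia DEX. Its 35S:LOB-GR arrays lay between 6.71 and 7.13, overlapping both. Its difference was -0.60 ± 0.15 (limma adjusted p = 0.0297). Of 69 plastid-encoded genes measured, 2 were called higher (rpl14 and the opposed gene rps16, another ribosomal protein gene) and 1 lower, or 4.35%. That share was near the 4.77% of all probe sets and the 3.35% to 4.19% of measured genes on the 5 nuclear chromosomes. The median response of the 69 was -0.20 in Columbia and -0.06 in 35S:LOB-GR.

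The other named loci with a negative Columbia response in this arm were AT2G38800, AT2G23540, AT5G48430, AT5G54370 and AT4G20860, with differences of 1.09 to 1.24. None of the 5 was called within Columbia, where limma adjusted p values ran from 0.057 for AT2G38800 to 0.112 for AT2G23540. AT2G38800 measured 8.29, 8.41 and 8.13 in Columbia mock and 7.42, 7.28 and 7.60 in DEX, against 7.81, 7.43 and 7.41 and then 7.71, 8.30 and 7.83 in 35S:LOB-GR. AT5G48430 had a wide Columbia mock group, at 6.37, 6.10 and 5.29, over a DEX group of 5.11, 5.01 and 5.25.

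Besides COR27 and psbN, AT3G26922, AT5G66330 and RHF1A, a RING-type ubiquitin ligase gene, had higher values in Columbia DEX, with differences of -0.69, -0.59 and -0.55. RHF1A measured 5.88, 5.91 and 5.72 in Columbia mock and 6.32, 6.32 and 6.11 in DEX, against 6.08 to 6.42 in 35S:LOB-GR. With 1 array left out at a time, AT2G38800 and AT5G54370 were called in all 12 fits, although AT2G38800 stayed in the Columbia arm in 7 of them. The calls of AT2G23540, AT5G48430, AT4G20860, rpl14, AT3G26922, psbN, AT5G66330 and RHF1A held in 3 to 5 of the 12, with highest limma adjusted p values of 0.0759 to 0.122. Each of these 8 lost its call without DEX replicate 2 of Columbia, and also without DEX replicate 2 of 35S:LOB-GR.

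In the Columbia arm, the Columbia DEX arrays all lay outside the range of the other 9 for 54.2% of probe sets and the mock arrays for 28.8%, against 4.7% and 4.1% of all probe sets. Here too the shares use the values that sorted the probe sets and are given as a description. The 3' minus 5' signal of the actin control probe sets, a sign of RNA and labelling quality, moved in the same genotype. It was 1.22 ± 0.18 in Columbia mock (1.12 to 1.43) and 0.94 ± 0.07 in Columbia DEX, and 1.1 ± 0.03 and 1.1 ± 0.06 in 35S:LOB-GR (log2, SD, n = 3). GAPDH went from -0.17 ± 0.07 to -0.21 ± 0.08 in Columbia and from -0.36 ± 0.09 to -0.32 ± 0.05 in 35S:LOB-GR. For ubiquitin the values were 0.05 ± 0.03 and -0.06 ± 0.05 in Columbia, and -0.09 ± 0.09 and -0.05 ± 0.10 in 35S:LOB-GR. The corresponding differences of DEX changes were 0.29 for actin, 0.08 for GAPDH and 0.16 for ubiquitin. Their part in the Columbia arm was not tested.

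The opposed class held 19% of the called probe sets, 96 higher and 110 lower. Median responses were 0.35 in 35S:LOB-GR and -0.33 in Columbia among the 96, and -0.39 and 0.34 among the 110. Limma called 104 of the 206 within 35S:LOB-GR and none within Columbia, against 9.97% and 0.0572% of all probe sets. The opposite movement in Columbia was thus not shown for any single gene of this class. Mock and DEX arrays did not overlap in either genotype for 139 of the 206, where 1.8% of all probe sets did so in opposite directions. The same values sorted the probe sets into this class, so the 104 and the 139 are given as a description. The size of the opposed class was 397 without DEX replicate 1 of 35S:LOB-GR. It was 96, 117, 133 and 125 without mock replicate 2 of Columbia, DEX replicate 2 of Columbia, mock replicate 2 of 35S:LOB-GR and DEX replicate 2 of 35S:LOB-GR.

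Both called genes of the auxin list were opposed. GH3.3, which joins auxin to amino acids, measured 8.56, 7.81 and 8.32 in Columbia mock and 8.99, 9.13 and 9.39 in DEX. In 35S:LOB-GR it measured 6.80, 7.93 and 7.68 in mock and 6.22, 5.60 and 6.0 in DEX. DEX arrays were above mock arrays in Columbia and below them in 35S:LOB-GR, with no overlap in either. Within 35S:LOB-GR it fell by 1.53 ± 0.25 (limma adjusted p = 0.00079), and the Columbia value was 0.94 ± 0.25 (limma adjusted p = 0.132).

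WES1, another enzyme of the GH3 family, measured 8.25, 7.82 and 8.30 and then 8.41, 8.60 and 8.57 in Columbia, against 7.25, 7.61 and 7.59 and then 7.06, 6.75 and 6.53 in 35S:LOB-GR. Its difference was -1.11 ± 0.21 (limma adjusted p = 0.00607). Of 33 auxin response genes listed 10 were measured, these 2 were called lower and none higher, against 2.95% and 1.82% of all probe sets. The median difference of the 10 was -0.13. The auxin response repressor gene IAA29 was at -0.63 ± 0.20 (limma adjusted p = 0.100), and its relative IAA18 at 0.27 ± 0.14 (limma adjusted p = 0.348).

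Of the other named opposed loci, Hsp70-2, a chaperone, measured 8.06, 7.70 and 7.89 and then 8.36, 8.32 and 8.36 in Columbia. In 35S:LOB-GR it measured 8.03, 8.48 and 8.46 and then 7.98, 7.28 and 7.62. AT1G14890 measured 8.44, 8.45 and 8.47 and then 8.84, 8.88 and 8.85 in Columbia, against 8.37, 8.71 and 8.51 and then 8.11, 7.72 and 7.55. These arrays moved apart in opposite directions with no overlap in either genotype. AT5G02540 had a difference of -1.39 ± 0.31 (limma adjusted p = 0.0156).

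The opposed loci with higher differences were AT2G46140, AT5G44380, AT5G26260 and AT3G26000. AT3G26000 measured 7.46, 7.42 and 7.57 and then 7.03, 7.07 and 7.18 in Columbia, against 7.17, 7.25 and 7.10 and then 7.74, 7.72 and 7.68 in 35S:LOB-GR. Its fit had the smallest SE of the 4, and its difference was 0.93 ± 0.12 (limma adjusted p = 0.000237). AT5G26260 lost its call without DEX replicate 1 of Columbia (limma adjusted p = 0.0541), while AT2G46140, AT5G44380, AT3G26000, GH3.3, WES1, AT5G02540, Hsp70-2 and AT1G14890 were called in all 12 fits that left out 1 array. The sort into the opposed class was less stable for some of them. WES1 stayed opposed in 9 of the 12 fits, AT2G46140, AT5G44380 and AT1G14890 in 10, and GH3.3 in 11. AT3G26000, AT5G02540 and Hsp70-2 stayed opposed in all 12. The call of the opposed gene rps16 held in 5 of the 12 (highest limma adjusted p 0.0673). AOR, a chloroplast reductase of reactive carbonyls chosen after its values were seen, measured 10.03, 9.88 and 9.85 and then 9.50, 9.73 and 9.52 in Columbia. In 35S:LOB-GR it measured 9.66, 9.59 and 9.90 and then 10.12, 10.28 and 10.19.

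**Figure D4:**
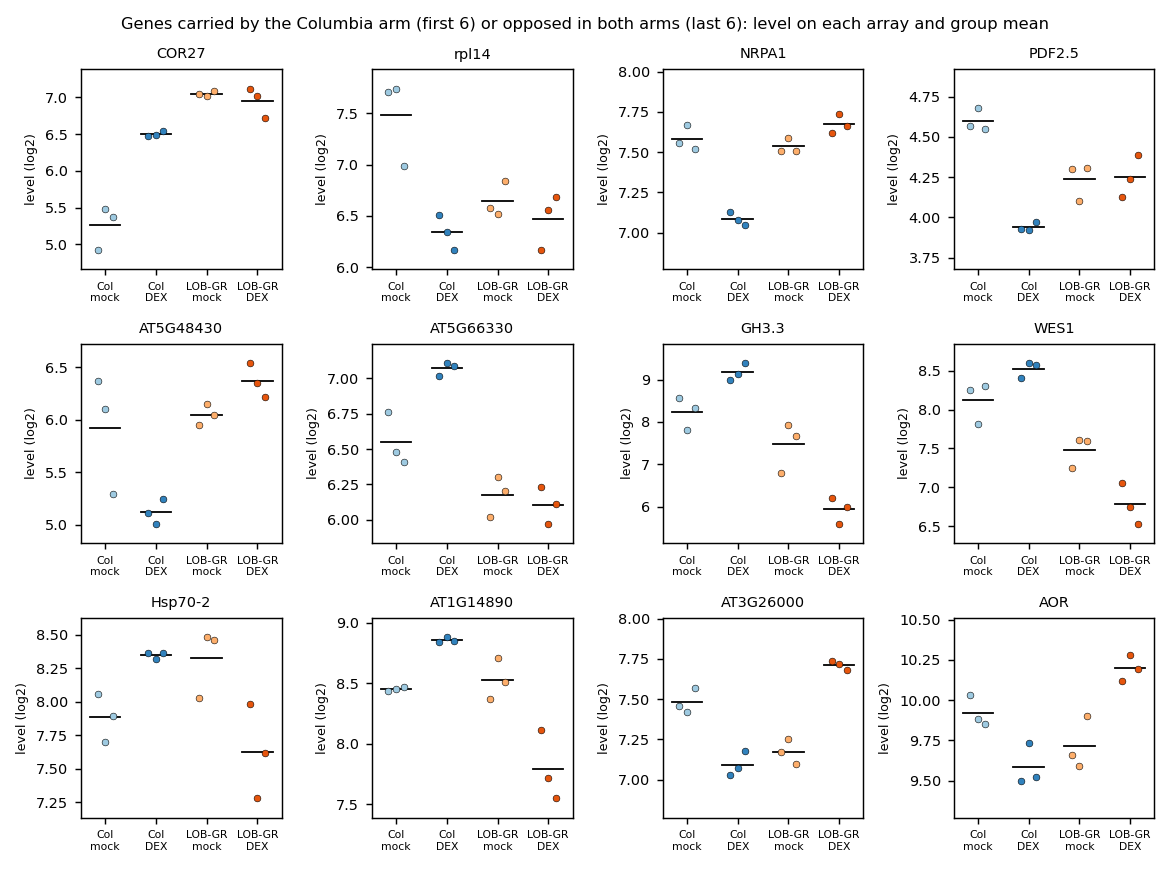
Level (y axis, log2) on each array (points, 3 per group) with the group mean (bar) for 6 genes of the Columbia arm (COR27 to AT5G66330) and 6 opposed genes (GH3.3 to AOR); panels have their own scales. In the first 6 the Columbia groups part while the 35S:LOB-GR groups stay close; in the last 6 the groups part in opposite directions.

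Other fixed lists had few measured genes and no call for the difference. Both measured cytokinin genes, ARR15 and RR16, response regulators that cytokinin induces, were at -0.53 ± 0.16 (limma adjusted p = 0.0786) and -0.38 ± 0.16 (limma adjusted p = 0.219). LAS, a GRAS factor of axillary meristems at organ boundaries, was at -0.36 ± 0.17 (limma adjusted p = 0.299). The LOB-domain genes LBD16 and LBD29, which act in lateral root formation, were at -0.14 and -0.13. WRKY53, a factor of senescence and defence, was at -0.96 ± 0.36 (limma adjusted p = 0.164), with -1.53 in 35S:LOB-GR and -0.57 in Columbia. SPCH, which starts the stomatal lineage, was at -0.30 ± 0.17, and AT5G48570, of the heat shock list, at -1.05 ± 0.30 (limma adjusted p = 0.0599). The root hair expansins EXPA7 and EXPA18 were at 0.45 ± 0.19 and 0.15 ± 0.16. None of the measured genes for gibberellin (3), ethylene and jasmonate (2), stomatal lineage (3), sugar starvation (2), hypoxia (2), heat shock (1), touch (1), iron and nitrate supply (1) and cellulose or lignin (1) was called. The called chaperone gene Hsp70-2 was not on the heat shock list, so that list does not cover all such genes.

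Families grouped by symbol after the values were seen had 1 to 3 called members each. Of 48 UDP-glycosyltransferases measured 3 were called lower and none higher, and of 14 SWEET transporters 2 were called lower, SWEET1 and SWEET2, the latter an opposed gene that was called in 2 of the 12 fits that left out 1 array (highest limma adjusted p 0.121). Of 20 beta-glucosidases 2 were called lower. These counts stand beside 2.95% of all probe sets called lower. The median differences of the 3 families were -0.09, -0.06 and -0.03. That of the 4 jacalin-related lectins, 2 of them called higher against 1.82% of all probe sets, was 0.56. Other families were mixed or had 1 call. Of 29 serine carboxypeptidase-like genes 2 were called higher and 1 lower (median 0.09). Of 15 cysteine-rich and defensin genes 1 was called higher and 2 lower (median -0.07). Of 13 glutathione S-transferases 1 was called lower (median 0.16), and of 9 plant U-box ligases 1 was called higher (median 0.18).

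Called genes were spread over the genome. By chromosome, 3.35% to 4.19% of measured genes on the 5 nuclear chromosomes were called. Of 5809 pairs of neighbouring genes with both measured, 15 had both called, 11 of them in the same direction. The second gene was called in 6.02% of pairs whose first gene was called and in 4.25% of all pairs.

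At the edge of the rule, the last loci called were AT3G15590 and AT1G29090, at 0.57 and 0.66, each with a limma adjusted p of 0.0498. The first not called was ATMRK1, at -0.45 with a limma adjusted p of 0.0502. For the sort into arms, AT5G24580 lay just inside, with the 35S:LOB-GR response 2.02 times the Columbia one, and AT1G09460 just outside, at 1.98 times for the Columbia arm.

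**Figure D5:**
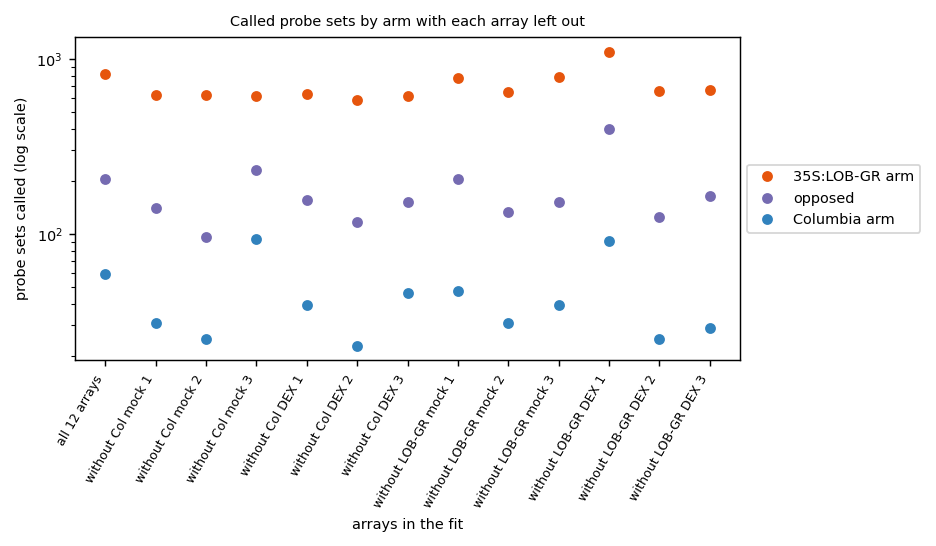
Number of called probe sets (y axis, log scale) in the 35S:LOB-GR arm, opposed, and in the Columbia arm, with all 12 arrays and with each array left out (x axis). The 35S:LOB-GR arm ranged from 584 to 1103, the opposed class from 96 to 397 and the Columbia arm from 23 to 94.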

How the data were processed

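Total RNA was measured on 12 one-colour Affymetrix arrays. The deposited values are log2 expression values, made by the authors with RMA, per the submitters' processing notes, with no version given. RMA sets all arrays to a common distribution, so a one-way shift of most transcripts would be reduced. Values ran from 2.71 to 14.14, no detection calls were used, and the number of arrays limits the precision.

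Means of the 4 groups were fitted with limma 3.58.1 (lmFit, eBayes) in R 4.3.3 on the 12 arrays together, with no block (8 residual and 6.86 prior degrees of freedom). Tests were two-sided, with Benjamini-Hochberg adjustment over 22746 probe sets, Affymetrix controls left out. On simulated data for the difference of responses, run on 22746 probe sets, the fit recovered 23.9% of differences of 0.5 on the log2 scale, 91% of 1 and 100% of 2, with 9 false calls. Only 67, 67 and 66 probe sets were changed at these sizes, fewer than were called in the data, so the rates need not carry over.

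Platform annotation, updated with RefSeq, named 13513 probe sets by 1 gene and 503 by several, and left 8730 unnamed. Of the one-gene probe sets 13436 matched RefSeq, and 11885 had only a locus name. Gene lists used the brightest probe set of each gene. The shares set beside list counts are of all probe sets, unnamed ones included. Of the 13513 one-gene probe sets alone, 213 were called higher and 308 lower. The members and lists were chosen with earlier results of these data known. Named genes were one-gene probe sets: the 10 largest differences in each direction in the 35S:LOB-GR arm, 6 in the Columbia arm (or fewer) and 4 opposed, plus up to 4 per list. The naming rule also took 2 unnamed probe sets in each direction. Lists given by counts alone are not named gene by gene.

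Same-numbered arrays did not deviate together (correlations of -0.228 to 0.191), and the main fit had no block. Such correlations cannot show whether same-numbered samples were grown or handled together. Alternatives were other scalings, array weights, other estimates of the spread, removal of dim probe sets, other arm ratios, stricter thresholds, a replicate block and leaving out arrays singly. Promoter motifs were not analysed here.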

Additional observations from a re-analysis of the deposited data

Results flagged for a closer look

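The 2 genotypes differed in their response to DEX for 1085 probe sets by the limma test of the difference itself, of which 820 were in the 35S:LOB-GR arm, 59 in the Columbia arm and 206 opposed. Among named loci this includes those whose fitted responses had opposite signs in the 2 genotypes. The differences of responses were 1.08 for AT2G46140, 1.07 for AT5G44380, 0.98 for AT5G26260 and 0.93 for AT3G26000. They were -2.47 for GH3.3, -1.39 for AT5G02540, -1.16 for Hsp70-2 and -1.13 for AT1G14890. Every other called gene named in the report differed between genotypes by the same test. No group had 4 or more arrays, so no rule was used to flag single arrays as outliers. Single arrays were followed only by their deviation from their group, by array weights and by fits that left them out.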

How the results depend on the processing

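The call of 1085 probe sets was 1076 after median subtraction, 1064 after quantile normalization, 1089 without the dimmest 40% of probe sets, 1131 with a variance trend and 1092 with robust eBayes, and 962 to 1085 of the 1085 were called in these fits. The samples share only a replicate number, and with the replicate block 993 were called, 942 of them shared. Array weights gave 1450 calls, with 110 in the Columbia arm, 322 opposed, and Columbia called as the larger arm for 15. At an adjusted p under 0.01 there were 474 (170 higher, 304 lower, 409 in the 35S:LOB-GR arm, 11 in the Columbia arm, 54 opposed; larger arm 35S:LOB-GR 267, Columbia 3). At a difference of at least 1 there were 329 (109, 220, 291, 11, 27, 253 and 3 in the same order). An arm ratio of 1.5 left 115 opposed, and a ratio of 3 gave 29 in the Columbia arm, 345 opposed and 7 in the same direction in both arms, where the ratio of 2 gave 0.

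With each array left out in turn, counts ranged from 724 to 1591 in all, 260 to 642 higher, 462 to 949 lower, 584 to 1103 in the 35S:LOB-GR arm, 23 to 94 in the Columbia arm, 96 to 397 opposed and 0 to 1 in the same direction. The larger arm was called 35S:LOB-GR for 387 to 697 and Columbia for 5 to 23. The cause of these shifts was not tested. Among 138 single genes followed through 2883 alternative values, 1 changed sign: GI, at -0.15, ranged from -0.50 to 0.04 with single arrays left out, the latter without mock replicate 2 of 35S:LOB-GR, and was not called in these fits. Of the rest, 2359 kept direction and side of the threshold, 512 kept direction and missed it, and 11 kept direction and passed it. With 3 arrays a group, most differences of 0.5 were not called in the simulated data, whose rates need not carry over to these arrays.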
